A study of Mus musculus with 14 samples.

Results

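RPE-specific Clic4 KO mice were compared with mice that carry the same Cre driver but no floxed allele, a comparison in which Cre is present on both sides. It used 4 of the 14 libraries of the series, chosen by their titles and genotypes. The KO mice (Best1-Cre+/-; Clic4f/f, n = 2) and the CreCtrl mice (Best1-Cre+/-, n = 2) were 3-month-old males of the C57BL/6J strain. The other libraries are a set of KO and wild-type mice and a set of KO and floxed Ctrl mice without Cre. Every set has separate KO mice, so set and control genotype cannot be told apart. RPE cells were detached from the eyecup with enzymes after the retina was removed, and the cells of both eyes of a mouse made 1 stranded poly(A) library. The Best1 promoter drives Cre in RPE cells after birth, and does not drive it in other cell types that come off with the RPE.

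The RPE is a pigmented epithelium between the photoreceptors and the choroid. It recycles retinoids for the visual cycle, engulfs shed outer segments, moves lactate, ions and lipids, and lays down the inner part of Bruch's membrane. CLIC4 belongs to a family of small proteins that exist in soluble and membrane-bound forms, and in epithelia it is linked to the actin cytoskeleton and to endosomes.

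The deposited counts summed to 22251155 and 14116835 in CreCtrl replicates 1 and 2 and to 26134166 and 32384166 in KO replicates 1 and 2. Both CreCtrl libraries were therefore shallower than both KO libraries. Levels are given as CPM (counts scaled to a common total, and with TMM factors of the 4 libraries), and a gene was called a DEG when its adjusted p-value in edgeR's quasi-likelihood test was under 0.05 and its fold change above 1.5. Values for 2 libraries are listed with replicate 1 first. With 2 mice against 2, an exact two-sided permutation test of a single gene cannot give a p below 0.33, so single-gene calls rest on the spread that edgeR shares across genes.

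The defining RPE markers were present in every library. All 10 were at 1 CPM or more in each of the 4 libraries. Their summed level was 56679 and 49271 CPM in CreCtrl and 68088 and 77622 CPM in KO libraries, a large part of it from Ttr. By edgeR 2 of the 10 were called higher and 0 lower, beside 3.46% and 12.2% of all genes tested, and 1 had a fold change below 0. Markers of other cells were also present and were mostly lower in KO libraries. The 10 fibroblast markers summed to 1293 and 2750 CPM in CreCtrl and 105 and 248 CPM in KO libraries, and 10 of 10 were called lower. The 10 endothelial markers summed to 415 and 240 CPM against 70.2 and 68.5 CPM, with 8 called lower. Of 11 myeloid markers 10 were called lower (12.2% of all genes tested were), while the sums, 946 and 1308 CPM against 754 and 786 CPM, were dominated by Csf1r, a receptor for macrophage growth factors, at 614 and 562 CPM in CreCtrl and 715 and 710 CPM in KO libraries. CreCtrl replicate 2 stood apart. The 10 rod markers summed to 2476 CPM there, against 686 CPM in CreCtrl replicate 1 and 452 and 463 CPM in the KO libraries, and the 5 erythrocyte markers to 757 CPM, against 109 CPM and 78.0 and 27.5 CPM. Pericyte markers (521 and 758 CPM against 318 and 387 CPM, 3 of 6 called lower) followed the same order. Of the 10 rod markers 9 were called lower (median log2 fold change -3.04), and of the 5 erythrocyte markers 2 (-3.24). Without CreCtrl replicate 2 these medians were -1.65 and -1.20. Melanocyte and Schwann cell markers (545 and 688 CPM against 660 and 593 CPM), cone markers (56.1 and 111 CPM against 62.5 and 61.7 CPM) and mast cell markers (26.3 and 18.2 CPM against 26.4 and 30.7 CPM) overlapped between the groups or were higher in KO libraries. Skeletal muscle markers were at most 5.12 CPM in any library. In bulk samples, fewer cells of a type and less RNA per cell cannot be told apart. At least 1 CPM in every library was found for 8 of 10 fibroblast, 9 of 10 endothelial, 9 of 11 myeloid and 10 of 10 rod markers. By edgeR in the fit of all 14 libraries, which pools the spread of all groups, 506 of all 17662 genes were called lower. Of the 10 fibroblast, 10 endothelial, 11 myeloid and 10 rod markers, 7, 6, 0 and 0 were. An unadjusted p under 0.05 in that fit was found for 10, 9, 9 and 2 of them. The part of these cells in the results that follow was not tested.

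**Figure D1:**
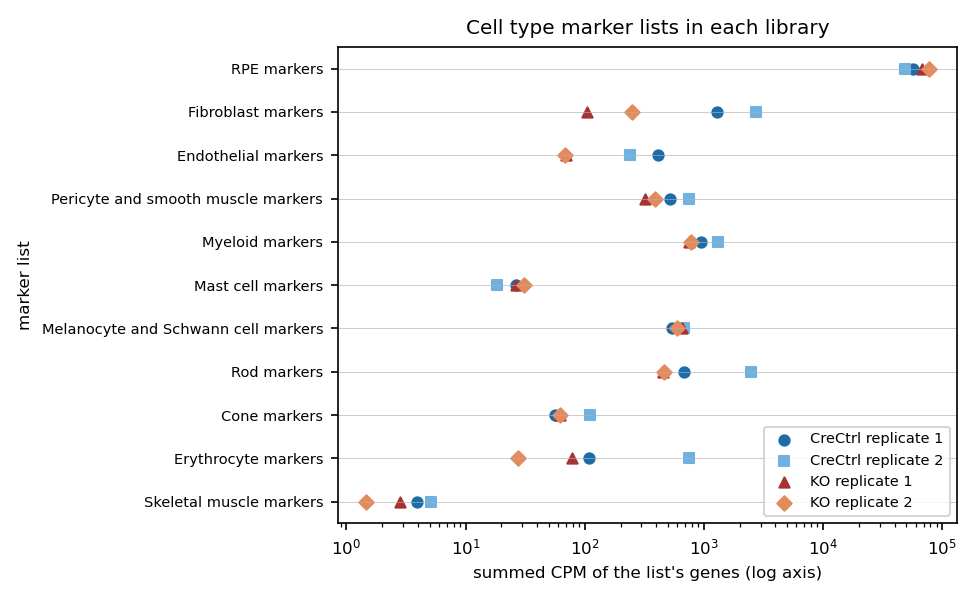
Summed CPM of each marker list (log axis) in the 4 libraries, 1 point per library. Fibroblast and endothelial sums of both KO libraries lie below both CreCtrl libraries, and CreCtrl replicate 2 lies far to the right for rod (2476 CPM) and erythrocyte (757 CPM) markers.

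Among the marker genes, Gnat1, the rod transducin subunit, had 221 and 1045 CPM in CreCtrl and 84.8 and 54.8 CPM in KO libraries (log2 fold change -3.18, edgeR adjusted p = 0.026). Lyz2, the lysozyme of macrophages, fell from 191 and 435 CPM to 8.04 and 29.6 CPM, and Ptprc, the pan-leukocyte CD45, from 18.8 and 41.1 CPM to 3.42 and 3.43 CPM. Cnga1, a rod channel subunit (-3.44), Prph2, an outer segment protein (-3.30), and Hbb-bt, a beta globin (-3.51), were also called lower, as was the glial gene S100b (-3.75). Of 6 cone markers 2 were called lower and 1 higher (median log2 fold change -2.65), beside 12.2% and 3.46% of all genes tested. Both lower ones were under 5 CPM in CreCtrl replicate 1. The one called higher was the cone phosphodiesterase Pde6c, at 18.8 and 18.1 CPM against 28.6 and 27.9 CPM. Not called were Hbb-bs (log2 fold change -3.01), Gnat2 (0.21), Sox10 (0.28) and Kit (0.58). Without CreCtrl replicate 2, Pde6c, Hbb-bt and S100b lost the call (edgeR adjusted p of 0.101 to 0.143). Pde6c also lost it without KO replicate 1 (0.149), without KO replicate 2 (0.225) and with library size alone (0.140).

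Clic4, the targeted gene (ENSMUSG00000037242, chr4:135213969-135272814 of GRCm38, minus strand, 5 exon blocks), was lower in both KO libraries than in both CreCtrl libraries. It had 86.5 and 109 CPM in CreCtrl and 13.2 and 30.4 CPM in KO libraries. The log2 fold change was -2.16 (standard error 0.36, edgeR adjusted p = 0.0132), and the exact permutation test gave the smallest p it can give, 0.33. Transcripts of Clic4 remained in both KO libraries. The exons that the floxed allele removes are not given in the sources used here, so reads from its remaining exons and reads from intact transcripts cannot be told apart. The summed level of the fibroblast markers was also below both CreCtrl libraries in each KO library. The fold change was -2.88 if KO replicate 2 was dropped and -1.66 if KO replicate 1 was dropped, with the values for the CreCtrl libraries in between.

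Of the 5 CLIC genes tested, 3 were called lower and 0 higher, beside 12.2% and 3.46% of all genes tested. The 3 include Clic4, which was targeted, so its fall says nothing about the other members. In the fit of all 14 libraries 1 of the 3 was called, Clic4. Clic1 fell from 32.4 and 32.8 CPM to 17.6 and 20.03 CPM (log2 fold change -0.79). Clic5, which links the membrane to actin in microvilli and stereocilia, fell from 3.59 and 4.67 CPM to 0.836 and 1.07 CPM (-2.10). Clic6 was the most abundant member, at 1116 and 852 CPM in CreCtrl and 1554 and 1887 CPM in KO libraries. It was not called (0.81, edgeR adjusted p = 0.0524), and it alone of the 5 had a fold change above 0. By DESeq2 and by limma-voom 1 of the 5 was called higher. Clic3 was under 2 CPM throughout and not called. Clic5 lost its call without CreCtrl replicate 2 (0.0799), and Clic1 and Clic5 without KO replicate 1 (0.0599 and 0.104) or KO replicate 2 (0.0607 and 0.0773).

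Across all genes, the falls were far larger than the rises. Of 15963 genes tested, 2498 (15.6%) were DEGs, 552 higher (3.46%) and 1946 lower (12.2%) in KO libraries. The median log2 fold change was 0.80 among the higher and -2.50 among the lower DEGs. Beyond 4-fold there were 11 higher and 1212 lower genes. In the fit of all 14 libraries, 673 of the 2498 DEGs were also called. The 2 directions lay at different levels of expression. Between 1 and 10 CPM, 19 genes were higher and 925 lower of 4478 tested, whereas between 100 and 1000 CPM 214 were higher and 89 lower of 1954. Scaling by library size alone moved the median over all genes from -0.02 to -0.24 and the split to 176 higher and 2694 lower. CreCtrl replicate 1 was the CreCtrl library nearer to the KO mean for 2173 of the DEGs, and CreCtrl replicate 2 for 324. Leaving out 1 library gave 84 higher and 1063 lower DEGs without CreCtrl replicate 2, 52 and 1227 without KO replicate 2, 2123 and 2696 without CreCtrl replicate 1, and 679 and 1786 without KO replicate 1. Exons of Icam1, Eng, Myoc, Col10a1, Fn1, Tagln, Lama2, Nid1, Timp3, Bmp4, Wnt5a, Otx2, Itgav, Prom1, Ezr, Rtn3, Cyp51, Hmgcs1, Mttp, Pltp, Tpi1, Aldoa, Dsp, Dnajb9, Dbp, Gm15446, Pmel, Zfp36 and Csf1r overlap genes of the other strand, and those of Cd74, Otx2, Neat1, Pcdhac2 and Hspa8 genes of the same strand. Since the strand setting of the counting is not known here, their counts are uncertain by the reads such genes share.

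**Figure D2:**
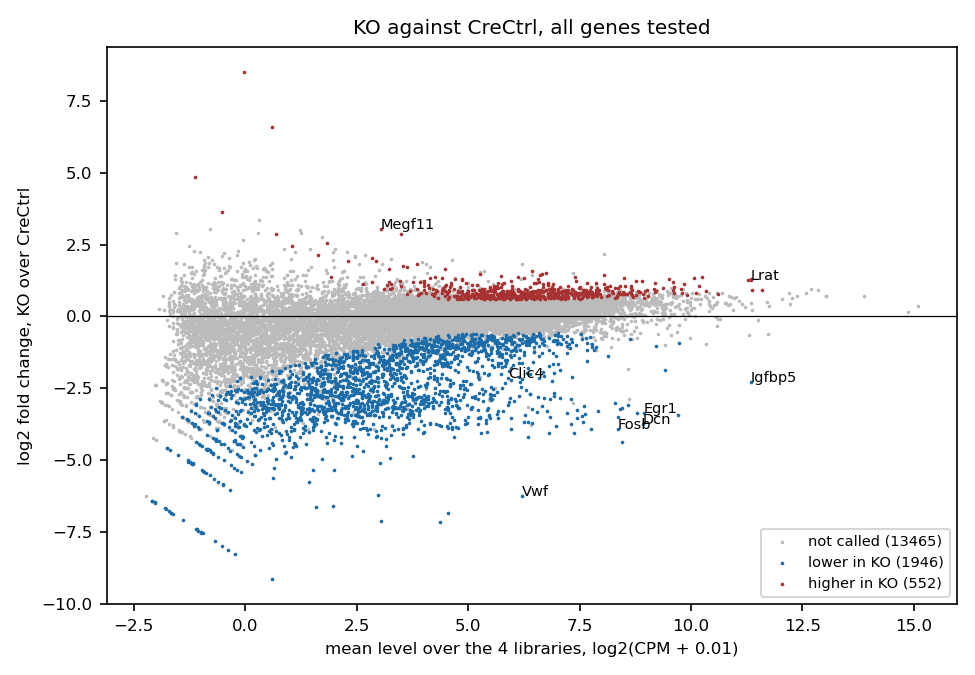
Log2 fold change of KO over CreCtrl against the mean level over the 4 libraries, log2(CPM + 0.01), 1 point per gene tested, with DEGs coloured by direction. The 1946 lower genes reach far below the line at low and middle levels, while the 552 higher genes lie mostly close above it.

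The immediate-early genes, which encode transcription factors and feedback regulators that cells induce within minutes of a stimulus, were lower without exception. Of 28 tested, 28 were called lower, with a median log2 fold change of -3.10 beside -0.02 over all genes. Fosb (ENSMUSG00000003545, chr7:19302696-19310051, minus strand), a subunit of the AP-1 factor, had 648 and 580 CPM in CreCtrl and 25.7 and 55.3 CPM in KO libraries (log2 fold change -3.92, standard error 0.37, edgeR adjusted p = 0.00367). Fos had 780 and 833 CPM against 42.8 and 113 CPM (-3.37). Egr1, a zinc finger factor, had 775 and 1025 CPM against 47.0 and 126 CPM (-3.38). Both CreCtrl libraries lay above both KO libraries for every one of the 28 genes, as for 36.9% of all genes tested, and KO replicate 1 was the lower of the KO libraries for each gene just named. Klf2, a factor of endothelial and immune cells, fell from 214 and 259 CPM to 9.19 and 23.9 CPM (-3.83). Zfp36, which binds and destabilises cytokine mRNAs, fell from 689 and 691 CPM to 46.9 and 114 CPM (-3.10). It overlaps a gene of the other strand. The same 28 genes were also called with any 1 library left out, and 22 of them in the fit of all 14 libraries.

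**Figure D3:**
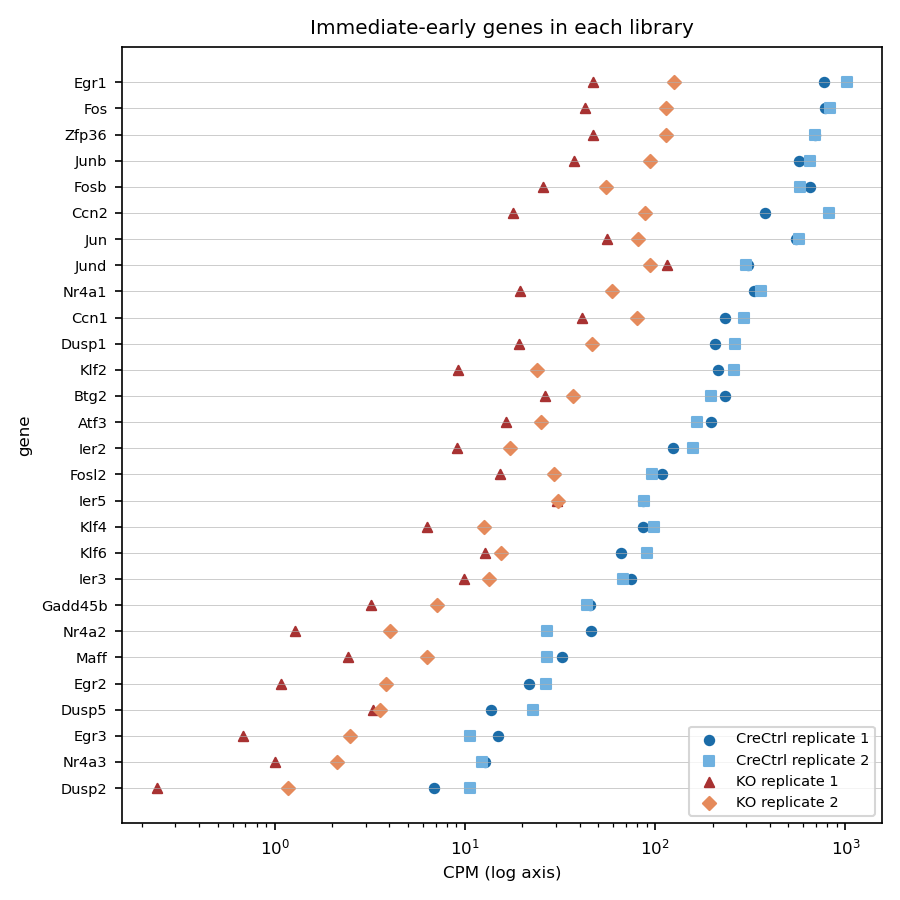
CPM (log axis) of the 28 immediate-early genes tested, 1 point per library. Both KO libraries lie left of both CreCtrl libraries for every gene, by the widest margin for Fosb (25.7 and 55.3 CPM against 648 and 580 CPM) among those described.

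The sequence before the start sites of Fos, Fosb and Zfp36 is shown as a description, and its part in the falls was not tested. RefSeq windows (GRCm38.p6) of 250 bases before to 50 bases after a start matched 24 of the 28 genes, and the 250 bases before the start are printed 5′ to 3′ on the gene's strand. Capitals mark TGACG, the core of the cyclic AMP response element, on either strand in Fos and Fosb, and the CArG box, the site of serum response factor, in Zfp36.
Fos: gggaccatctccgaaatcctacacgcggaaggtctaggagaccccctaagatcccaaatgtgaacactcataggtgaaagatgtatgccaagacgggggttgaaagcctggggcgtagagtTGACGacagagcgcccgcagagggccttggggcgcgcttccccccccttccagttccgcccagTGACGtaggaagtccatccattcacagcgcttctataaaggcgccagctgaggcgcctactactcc
Fosb: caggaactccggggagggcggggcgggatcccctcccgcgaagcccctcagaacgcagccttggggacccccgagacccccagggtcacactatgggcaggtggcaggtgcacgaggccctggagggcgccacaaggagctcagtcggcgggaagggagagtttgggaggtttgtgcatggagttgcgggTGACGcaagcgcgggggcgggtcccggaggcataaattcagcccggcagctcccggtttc
Zfp36: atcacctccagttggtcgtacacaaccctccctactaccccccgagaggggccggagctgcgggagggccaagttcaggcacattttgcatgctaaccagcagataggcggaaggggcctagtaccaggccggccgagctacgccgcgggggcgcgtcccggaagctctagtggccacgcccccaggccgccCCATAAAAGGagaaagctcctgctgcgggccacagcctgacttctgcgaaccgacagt
These windows lie at chr12:85473640-85473889 (plus strand), chr7:19310046-19310295 (minus strand) and chr7:28379229-28379478 (minus strand). TGACG, searched on both strands, was in 16 of the 24 genes with a window and in 23.05% of all 27025 genes with one. The latter include genes that were not tested here, so the shares are not a like comparison. The full element TGACGTCA, which contains TGACG, was in 3 (Btg2, Dusp1 and Maff) and in 2.03% of all genes. The CArG box was in 3 (Egr2, Dusp5 and Zfp36) and in 1.81% of all genes. CCAAT was in 9 (41.06% of all genes) and CACGTG in 7 (8.09%). A match is a description of the letters and not a site.

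Of 39 genes of the NF-kB pathway, cytokines and chemokines, 27 were called lower and 0 higher (median log2 fold change -2.18), beside 12.2% and 3.46% of all genes tested. Of these 27, 10 were called in the fit of all 14 libraries, beside 673 of all 2498 DEGs. Without CreCtrl replicate 2 the median was -2.19. Cxcl12, a chemokine of stromal cells, fell from 86.5 and 70.3 CPM to 3.98 and 8.84 CPM (-3.61, edgeR adjusted p = 0.0039). Icam1, a leukocyte adhesion molecule, fell from 130 and 98.9 CPM to 4.46 and 15.0 CPM (-3.55). Socs3, a feedback inhibitor of cytokine receptors, was the most abundant of the list and fell from 325 and 302 CPM to 17.7 and 47.6 CPM (-3.26). Of 28 genes of the interferon response and antigen presentation, 12 were called lower and 0 higher (median -0.81), and 3 of the 12 in the fit of all 14 libraries. The class II genes Cd74 (-2.86) and H2-Aa (-2.84), which are expressed in antigen-presenting cells, were among them, while B2m, the light chain of class I, had 551 and 544 CPM against 622 and 596 CPM and was not called (0.15, and -0.07 with library size alone). Each of these 5 calls also held with any 1 library left out. The myeloid marker list fell in the same libraries.

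Genes of blood vessels were among the largest falls. Vwf (ENSMUSG00000001930, chr6:125546774-125686679, plus strand), the von Willebrand factor of endothelial cells, fell from 183 and 110 CPM to 1.03 and 2.74 CPM (log2 fold change -6.26, standard error 0.46, edgeR adjusted p = 0.00247). Sele, the endothelial selectin that leukocytes roll on, fell from 78.1 and 14.1 CPM to 0.0796 and 0.693 CPM (-6.83). Lrg1, a secreted glycoprotein of activated endothelium, fell from 21.03 and 10.1 CPM to 0.199 and 0.208 CPM (-6.22). CreCtrl replicate 1 was the higher CreCtrl library for all 3, the reverse of the fibroblast, rod and erythrocyte markers. Pecam1 (-3.71) and Eng (-3.24) also fell, and so did Plvap, the diaphragm protein of fenestrated capillaries, by less, from 91.3 and 56.6 CPM to 25.5 and 17.9 CPM (-1.77). Of the pericyte genes, Rgs5 fell from 200 and 494 CPM to 11.4 and 51.7 CPM (-3.45), and Pdgfrb from 77.8 and 103 CPM to 26.5 and 41.2 CPM (-1.42). All 8 genes kept their calls with any 1 library left out.

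Dcn (ENSMUSG00000019929, chr10:97479609-97518143, plus strand), the small proteoglycan decorin, had 564 and 1236 CPM in CreCtrl and 24.6 and 108 CPM in KO libraries (log2 fold change -3.76, standard error 0.71, edgeR adjusted p = 0.0185). Lum, the proteoglycan lumican, fell from 32.3 and 55.3 CPM to 1.75 and 4.05 CPM (-3.90). CreCtrl replicate 2 was the higher CreCtrl library and KO replicate 2 the higher KO library for both. Myoc, the secreted protein myocilin, fell from 418 and 922 CPM to 5.69 and 58.01 CPM (-4.39). Chad (-4.85), Comp (-4.50), Lsamp (-4.29) and Cyp26a1, which breaks down retinoic acid (-4.23), were also among the largest falls. Igfbp5, a binding protein for insulin-like growth factors, was the most abundant gene called lower, at 2933 and 5726 CPM against 835 and 946 CPM (-2.28).

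Of 21 fibrillar and associated collagens, 15 were called lower and 2 higher, with a median log2 fold change of -3.03. Of these 17 calls, 15 were kept in the fit of all 14 libraries, beside 673 of all 2498 DEGs. Over all genes tested, 12.2% were called lower and 3.46% higher. Col10a1 (-4.22) and Col12a1 (-3.92) fell the most by the values given here. Of the 21 genes, 5 had a fold change above 0, and the highest of these (1.98) was not called. The 2 called higher were the chains of collagen VIII, a network collagen of basement membranes. Col8a1 rose from 826 and 534 CPM to 1306 and 2180 CPM (1.36, edgeR adjusted p = 0.0351) and Col8a2 from 1999 and 1617 CPM to 3162 and 3733 CPM (0.93, edgeR adjusted p = 0.0372). Of 13 transcription factors and markers of epithelial-mesenchymal transition, 7 were called lower and 0 higher (median -2.75). In the fit of all 14 libraries 2 of these 7 were called. Tagln, an actin-binding protein of smooth muscle, fell by 3.42 and Fn1, fibronectin, by 3.39 on the log2 scale. Vim, the intermediate filament vimentin, fell less, from 226 and 276 CPM to 143 and 152 CPM (-0.77). Without CreCtrl replicate 2 Col8a1 lost its call (0.0622), without KO replicate 1 Vim and Col8a2 did (0.102 and 0.124 as lowest and highest edgeR adjusted p), and without KO replicate 2 Vim, Col8a1 and Col8a2 did (0.142 to 0.314). Fibroblast markers fell in the same libraries, and their part was not tested.

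Of 21 basement membrane genes tested, 10 were called lower and 0 higher (median log2 fold change -0.76). Over all genes tested, 12.2% were called lower and 3.46% higher. In the fit of all 14 libraries 7 of the 10 were called, beside 673 of all 2498 DEGs. Lama2, a laminin chain of muscle and nerve, fell from 35.2 and 60.1 CPM to 4.22 and 6.97 CPM (-3.08), and Nid1, which joins laminin to collagen IV, from 45.7 and 53.2 CPM to 5.73 and 7.52 CPM (-2.90, edgeR adjusted p = 0.00247). Col18a1, the most abundant, had 983 and 872 CPM against 964 and 1068 CPM and was not called (0.13, and -0.09 with library size alone). Of 22 elastic fibre and small proteoglycan genes, 11 were called lower and 0 higher (median -1.18). In the fit of all 14 libraries 8 of the 11 were called. Of 20 matrix proteases and their inhibitors, 10 were called lower and 1 higher (median -1.48). Of these 11 calls, 3 were kept in the fit of all 14 libraries. Mmp2, a gelatinase, fell from 35.8 and 50.5 CPM to 6.29 and 5.82 CPM (-2.83) and the inhibitor Timp1 from 11.5 and 16.5 CPM to 0.637 and 2.53 CPM (-3.13). Mmp15, a membrane-bound protease, rose from 36.6 and 26.4 CPM to 58.9 and 59.4 CPM (0.91), a call lost without KO replicate 2 (edgeR adjusted p = 0.053). Timp3, the inhibitor held in Bruch's membrane, had 5861 and 4320 CPM against 8645 and 10687 CPM and was not called (0.93, edgeR adjusted p = 0.0529).

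In the TGF-beta and BMP pathway, 14 of 42 genes were called lower and 3 higher (median log2 fold change -0.29). Of these 17 calls, 10 were kept in the fit of all 14 libraries, beside 673 of all 2498 DEGs. Over all genes tested, 12.2% were called lower and 3.46% higher. Gdf10, a ligand, fell from 12.7 and 24.3 CPM to 0.239 and 0.936 CPM (-4.93), and Ltbp4, which holds latent TGF-beta in the matrix, from 62.7 and 94.1 CPM to 3.26 and 8.73 CPM (-3.70). The BMP antagonist Nog rose from 201 and 236 CPM to 435 and 437 CPM (0.99, edgeR adjusted p = 0.0148), and the ligand Bmp7 from 201 and 139 CPM to 303 and 306 CPM (0.84). Bmp4, the most abundant of the list, was not called (0.18, and -0.04 with library size alone). In the Wnt pathway, 7 of 27 were called lower and 2 higher (median -0.22), and 4 of these 9 calls were kept in the fit of all 14 libraries. Dkk2, a secreted antagonist, fell by 4.19 and the ligand Wnt5a by 2.99 on the log2 scale. The antagonist Sfrp1 rose from 267 and 213 CPM to 361 and 467.6 CPM (0.79), and the receptor Fzd4 from 334 and 310 CPM to 467 and 558 CPM (0.67). Calls of the rises depended on single libraries. Bmp7, Sfrp1 and Fzd4 lost the call without CreCtrl replicate 2 (edgeR adjusted p of 0.0858 to 0.1098) and with library size alone (0.0574 to 0.0774), Bmp7 and Fzd4 without KO replicate 1 (0.0611 and 0.0864), and these 3 and Nog without KO replicate 2 (0.0542 to 0.348).

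**Figure D4:**
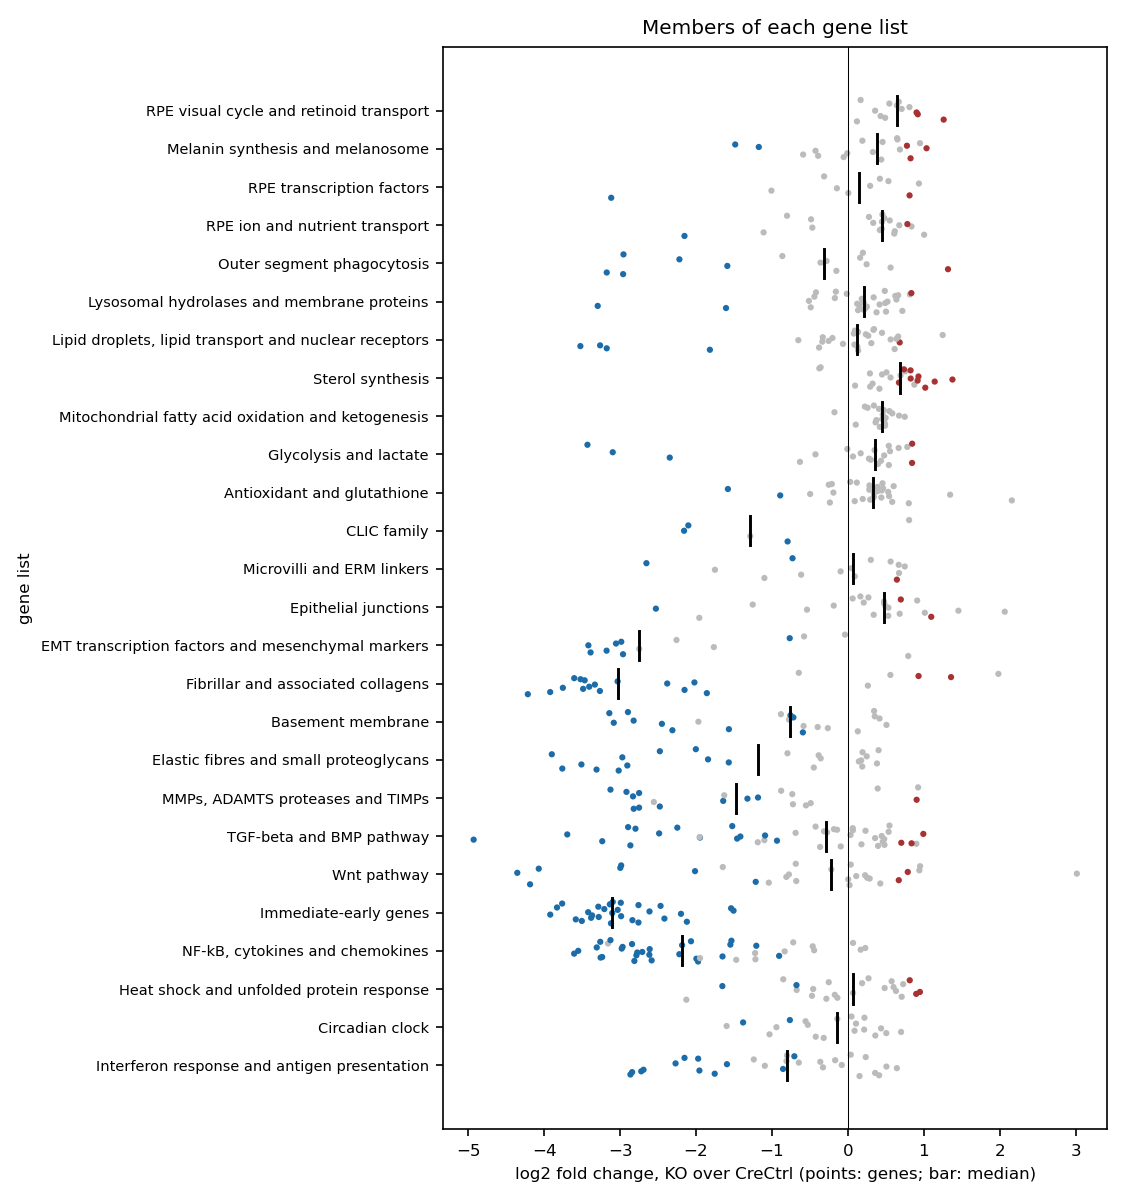
Log2 fold change of KO over CreCtrl for every tested member of each gene list, coloured by call (blue lower, red higher, grey not called), with a bar at the median of the list. Immediate-early genes (median -3.10) and collagens (median -3.03) lie far to the left, and visual cycle (0.65) and sterol synthesis (0.68) genes to the right.

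Genes of the RPE itself had smaller fold changes, more often above 0 than below. Over all genes tested, 3.46% were called higher and 12.2% lower. Of 13 visual cycle and retinoid transport genes, 3 (23.1%) were called higher and 0 lower. Their median log2 fold change was 0.65, and 13 of 13 had a fold change above 0. Lrat (ENSMUSG00000028003, chr3:82892579-82903973, minus strand), which esterifies retinol for storage, had 1903 and 1150 CPM in CreCtrl and 3119 and 4201 CPM in KO libraries (1.26, standard error 0.30, edgeR adjusted p = 0.0364). Rdh10, a retinol dehydrogenase, rose from 2347 and 1929 CPM to 3642 and 4450 CPM (0.92). Ttr, the retinol carrier transthyretin, was the most abundant gene of the list at 28575 and 27836 CPM against 30330 and 33040 CPM, and was not called (0.17, and -0.05 with library size alone). Of 18 melanin and melanosome genes, 3 (16.7%) were called higher and 2 (11.1%) lower (median 0.38), the latter share near that of all genes. Oca2, a melanosomal chloride channel, rose from 138 and 100 CPM to 223 and 266 CPM (1.04), and Gpr143, a melanosomal receptor, from 45.6 and 39.5 CPM to 73.9 and 77.0 CPM (0.83). Pmel, which forms the fibrils of the melanosome, fell from 294 and 331 CPM to 150 and 127 CPM (-1.17), although reads of Cdk2 and Dgka on the other strand could enter its count. Rab32 fell by 1.48 on the log2 scale, and Dct was not called (0.44). Of 10 RPE transcription factors, 1 (10%) was called higher and 1 (10%) lower (median 0.15), the latter share near that of all genes. Lhx2 rose from 125 and 101 CPM to 195 and 202 CPM (0.81), and Otx2 was not called (0.29). Crx, a photoreceptor factor, fell from 12.3 and 53.9 CPM to 3.98 and 3.60 CPM (-3.12), with CreCtrl replicate 2 far above the rest, as for the rod markers. Without KO replicate 2, Lrat, Rdh10, Oca2, Gpr143, Pmel, Rab32 and Lhx2 lost the call. The median of the 13 visual cycle genes was 0.51 in that fit, where fewer genes were called higher over all genes as well. Rab32 and Lhx2 lost their calls without CreCtrl replicate 2, and Rdh10 did without KO replicate 1. Without CreCtrl replicate 1 the median log2 fold change was 0.88 for visual cycle and 0.48 for melanin genes, beside -0.03 over all genes.

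Of 19 genes for ion and nutrient transport, 1 (5.26%) was called higher and 1 (5.26%) lower (median 0.45). Over all genes tested, 3.46% were called higher and 12.2% lower. Slc16a1, a lactate transporter, rose from 1233 and 1052 CPM to 1807 and 2129 CPM (0.78), and Aqp1, a water channel, fell from 43.3 and 30.5 CPM to 8.36 and 8.28 CPM (-2.15). Bsg, the partner of lactate transporters, was not called (0.62). Of 14 genes of outer segment phagocytosis, 1 (7.14%) was called higher and 5 (35.7%) lower (median -0.32). Itgav, the integrin chain that binds outer segments, rose from 517 and 312 CPM to 897 and 1172 CPM (1.32), whereas the scavenger receptor Cd36 (-3.18) and the receptor kinase Axl (-2.96) fell. In the list of microvilli and their linkers, Cdhr1 rose (0.65) and Prom1 (-2.65) and Slc9a3r2 (-0.73) fell, of 14 tested. These are 7.14% higher and 14.3% lower, the latter near the 12.2% of all genes. Ezr, the membrane linker ezrin, was not called (0.67). Of 22 epithelial junction genes, 2 (9.09%) were called higher and 1 (4.55%) lower (median 0.48). Those higher were Cdh2, N-cadherin (1.10), and Pard3, a polarity protein (0.70). Krt18 was not called (0.21, and -0.01 with library size alone). Slc16a1, Cdhr1, Prom1, Cdh2 and Pard3 lost the call without CreCtrl replicate 2 (edgeR adjusted p of 0.0668 to 0.127), Slc16a1, Cdhr1 and Slc9a3r2 without KO replicate 1 (0.118 to 0.122), and Slc16a1, Itgav, Cdhr1, Slc9a3r2, Cdh2 and Pard3 without KO replicate 2 (0.0894 to 0.363). Slc9a3r2 lost it without CreCtrl replicate 1 (0.0543), and Slc16a1, Cdhr1, Cdh2 and Pard3 with library size alone (0.0506 to 0.0771). With CreCtrl replicate 1 left out the median was 0.53 for transport and 0.60 for junction genes, beside -0.03 over all genes.

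Other abundant genes that were called higher included Abhd2, a lipid hydrolase (1865 and 1145 CPM against 3252 and 4151 CPM), and Itgb8, an integrin chain that activates latent TGF-beta (1797 and 1088 CPM against 3188 and 3815 CPM). Spon1 (0.81), Rtn3 (0.87), Tmem56 (1.06) and Sulf1, a sulfatase of heparan sulfate (0.99), were also called higher on the log2 scale. All 6 lost the call without KO replicate 2 (edgeR adjusted p of 0.158 to 0.310). Spon1, Rtn3, Tmem56 and Sulf1 lost it without CreCtrl replicate 2 (0.0505 to 0.0715), and Spon1 and Rtn3 without KO replicate 1 (0.0951 and 0.0952). Rtn3 lost it with library size alone (0.0538).

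Of 22 genes of sterol synthesis tested, 9 were called higher and 0 lower (median log2 fold change 0.68), beside 3.46% and 12.2% of all genes tested. Hmgcs1, the synthase that feeds the mevalonate pathway, rose from 78.5 and 49.2 CPM to 122 and 161 CPM (1.14, standard error 0.25, edgeR adjusted p = 0.0296). Cyp51, the lanosterol demethylase, rose from 35.3 and 24.1 CPM to 50.7 and 70.0 CPM (1.02, edgeR adjusted p = 0.034), and Srebf2, the transcription factor that drives the pathway, from 134 and 119 CPM to 198 and 224 CPM (0.74, edgeR adjusted p = 0.03). Both KO libraries lay above both CreCtrl libraries for 18 of the 22 genes (34.8% of all genes tested) and below for 2 (36.9%). The count rests on some libraries and on the fit. Cyp51 and Srebf2 lost their calls without CreCtrl replicate 2, and all 3 genes named did without KO replicate 2. Over all genes, too, fewer were called higher in these 2 fits. With library size alone 5 of the 22 were called higher, beside 176 of all 15963 genes. In the edgeR fit of all 14 libraries 0 were, beside 197 of 17662, and 7 had an unadjusted p under 0.05, beside 4205. DESeq2 called 13 (1193 of all 24610 genes) and limma-voom 9 (667 of 15963) in the 4 libraries. The median stayed between 0.45 and 0.86 in these fits and in those without 1 library. It was 0.55 without CreCtrl replicate 2 and 0.53 without KO replicate 2.

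**Figure D5:**
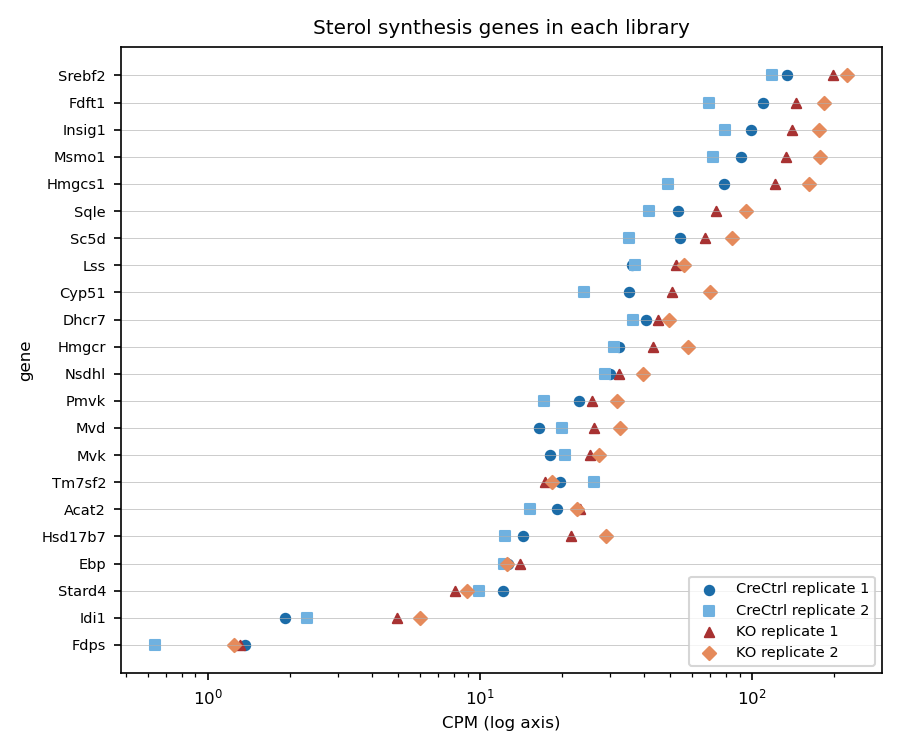
CPM (log axis) of the 22 sterol synthesis genes tested, 1 point per library. Both KO libraries lie to the right of both CreCtrl libraries for 18 genes, among them Hmgcs1 (122 and 161 CPM against 78.5 and 49.2 CPM).

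The windows before the start sites of Hmgcs1 and Srebf2 are shown because many genes of this list shared a short sequence there. Capitals mark CCAAT, the box bound by NF-Y, or its reverse complement.
Hmgcs1: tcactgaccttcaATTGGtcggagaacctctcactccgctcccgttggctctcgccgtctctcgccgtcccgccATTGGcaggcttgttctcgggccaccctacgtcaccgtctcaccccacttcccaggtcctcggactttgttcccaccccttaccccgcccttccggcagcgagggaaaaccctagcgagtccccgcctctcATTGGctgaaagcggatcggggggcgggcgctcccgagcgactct
Srebf2: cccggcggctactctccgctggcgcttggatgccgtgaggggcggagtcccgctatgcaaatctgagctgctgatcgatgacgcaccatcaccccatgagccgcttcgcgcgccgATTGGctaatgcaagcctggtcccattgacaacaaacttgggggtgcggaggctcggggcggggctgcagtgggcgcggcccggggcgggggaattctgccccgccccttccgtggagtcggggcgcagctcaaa
They lie at chr13:119690101-119690350 and chr15:82147019-82147268 on the plus strand. CCAAT was in 16 of the 17 genes of the list with a window, and in 41.06% of all genes. TGACG was in 8 (23.05% of all genes) and CACGTG in 4 (8.09%), while TGACGTCA (2.03%) and the CArG box (1.81%) were in 0. That a motif is not in this window says only that these letters are not there.

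Of 30 genes of lipid droplets, lipid transport and nuclear receptors, 1 was called higher and 4 lower (median log2 fold change 0.12), shares of 3.33% and 13.3% that lie near the 3.46% and 12.2% of all genes tested. Mttp, which loads lipid onto apolipoprotein B, rose from 20.004 and 22.0 CPM to 30.3 and 37.0 CPM (0.68), and Fabp5, a fatty acid binding protein, fell by 3.26 on the log2 scale. Pltp, the phospholipid transfer protein, was not called (0.66, edgeR adjusted p = 0.0595). Of 20 genes of fatty acid oxidation and ketogenesis, 0 were called by edgeR or limma-voom, 10 had an unadjusted p under 0.05 by edgeR, and 19 had a fold change above 0 (median 0.46). DESeq2 called 2 higher (1193 of all 24610 genes). The count of 0 depends on the libraries and the fit. With the replicate block edgeR called 3 of the 20 higher (1060 of all 15963 genes). With 1 library left out the median ranged from 0.24 to 0.67, beside -0.05 to -0.03 over all genes. Eci1, an isomerase of fatty acid oxidation, was at 277 and 210 CPM against 320 and 349 CPM and was not called (0.46). Of 31 lysosomal genes, 1 (3.23%) was called higher and 2 (6.45%) lower (median 0.21), the former share near that of all genes. Smpd1, acid sphingomyelinase, rose from 329 and 237 CPM to 472 and 539 CPM (0.84), while the cathepsins Ctss (-3.29) and Ctsh (-1.61) fell. Cst3, the cathepsin inhibitor cystatin C, was not called (0.72). Mttp lost the call without CreCtrl replicate 1 (edgeR adjusted p = 0.0519), Mttp and Smpd1 without CreCtrl replicate 2 (0.0781 and 0.0841), Smpd1 without KO replicate 1 (0.0561), and both without KO replicate 2 (0.212 and 0.300 as lowest and highest) or with library size alone (0.0551 and 0.102). With CreCtrl replicate 1 left out the median was 0.18 for lipid and 0.30 for lysosomal genes, beside -0.03 over all genes.

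Of 21 genes of glycolysis and lactate, 2 (9.52%) were called higher and 3 (14.3%) lower (median 0.35). Over all genes tested, 3.46% were called higher and 12.2% lower, the latter near the share here. The enzymes Eno1 (488 and 345 CPM against 714 and 781 CPM) and Tpi1 (136 and 105 CPM against 190 and 242 CPM) rose, and Slc16a3, a lactate exporter (-3.43), and Pfkfb3, a regulator of glycolytic flux (-3.10), fell on the log2 scale. Of 31 antioxidant and glutathione genes, 2 (6.45%) were called lower and 0 higher (median 0.33). These were Gstm1, a glutathione transferase (-0.89), and Prdx4, a peroxiredoxin (-1.58), while Gpx4, the most abundant of these genes, was not called (0.29). Aldoa, the most abundant of the glycolysis list, was not called either (0.54). Eno1, Tpi1 and Prdx4 lost the call without CreCtrl replicate 2 (edgeR adjusted p of 0.079 to 0.107), Eno1 and Prdx4 without KO replicate 1 (0.0599 and 0.0758), and Eno1, Tpi1, Gstm1 and Prdx4 without KO replicate 2 (0.0545 to 0.218). Eno1 lost it with library size alone (0.0578). With CreCtrl replicate 1 left out the median was 0.49 for glycolysis and 0.45 for antioxidant genes, beside -0.03 over all genes.

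The 10 largest rises among protein-coding DEGs with at least 10 CPM in both KO libraries ranged from 1.48 to 3.05 in log2 fold change. Megf11 (ENSMUSG00000036466, chr9:64385626-64709205, plus strand), a cell surface protein of the nervous system, rose from 2.48 and 0.961 CPM to 17.2 and 12.2 CPM (log2 fold change 3.05, standard error 0.45, edgeR adjusted p = 0.00905). Cntn1, an adhesion protein of axons, rose from 4.62 and 0.576 CPM to 23.9 and 16.05 CPM (2.88), Gsg1l from 4.06 and 1.47 CPM to 10.2 and 12.9 CPM (2.03), and the glutamate receptor gene Grik1 from 24.02 and 16.2 CPM to 53.4 and 59.9 CPM (1.49). CreCtrl replicate 1 was the nearer CreCtrl library to the KO libraries in each. The desmosome gene Dsp (1.59), the binding protein Igfbp2 (1.52), the kinase gene Hipk2 (1.48), the adhesion gene Ncam2 (1.66) and Dgkb (1.66) followed. Pcdhac2 (1.72) shares exons with the other genes of its cluster, so its count is uncertain. Without CreCtrl replicate 2, Pcdhac2, Ncam2 and Dgkb lost the call (0.0537 to 0.0823), and without KO replicate 2 Gsg1l, Pcdhac2, Ncam2 and Dgkb did (0.0599 to 0.153). Dgkb lost it with library size alone (0.06). Among genes named after their values were seen, Gm5900, with 0.0427 and 0 CPM against 3.30 and 2.67 CPM, and Smt3h2-ps, with 0 and 0 CPM against 2.189 and 1.70 CPM, had reads almost only in KO libraries. The largest fall at this level, Gm15446, went from 15.0 and 17.7 CPM to 0.239 and 0 CPM.

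Among abundant genes called lower were some with products in the nucleus. The RNA Neat1, the scaffold of paraspeckles, fell from 841 and 1292 CPM to 370 and 217 CPM (log2 fold change -1.86), Rsrp1 from 1066 and 1165 CPM to 690 and 471 CPM (-0.94), the U1 subunit Snrnp70 from 670 and 919 CPM to 456 and 320 CPM (-1.03), and the splicing factor Srsf5 from 486 and 522 CPM to 340 and 246 CPM (-0.78). Of 23 genes of the heat shock and unfolded protein responses, 3 (13.0%) were called higher and 2 (8.70%) lower (median 0.07). Over all genes tested, 3.46% were called higher and 12.2% lower. The chaperone Hsp90aa1 (717 and 477 CPM against 1016 and 1289 CPM) and Dnajb9 (0.90) rose, and the small heat shock genes Hspb1 (40.6 and 42.6 CPM against 12.0 and 14.5 CPM) and Hspb8 (-0.68) fell. Hspa8 was not called (0.60). Of 19 clock genes, 2 were called lower and 0 higher (median -0.14), a share of 10.5% lower near the 12.2% of all genes tested, Per1 from 179 and 186 CPM to 66.0 and 74.2 CPM (-1.38) and Per3 (-0.76), while Dbp, an output of the clock, was not called (0.21). Rsrp1, Snrnp70, Srsf5, Hsp90aa1, Hspb8 and Per3 lost the call without CreCtrl replicate 2 (edgeR adjusted p of 0.0619 to 0.0934), Srsf5 and Hspb8 without KO replicate 1 (0.0518 and 0.0626), Hspb8 without CreCtrl replicate 1 (0.0547), and Rsrp1, Snrnp70, Srsf5, Hsp90aa1, Dnajb9, Hspb8 and Per3 without KO replicate 2 (0.0831 to 0.369). Hsp90aa1 lost it with library size alone (0.0573).

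Genes near Clic4 were also compared, because the floxed allele was in KO mice only. Of 151 genes tested within 5 Mb of Clic4 on chromosome 4, 2 were called higher and 24 lower, 17.2% in all, beside 15.6% of all genes and 13.2% of the other genes of that chromosome. Of genes named after their values were seen, Runx3, a transcription factor 93 kb away, fell from 2.99 and 2.24 CPM to 0.0796 and 0.277 CPM (log2 fold change -3.81), and Id3, an inhibitor of helix-loop-helix factors 930 kb away, from 163 and 163 CPM to 46.2 and 38.5 CPM (-1.95). Rsrp1, described above, is 290 kb away, and lost its call without CreCtrl replicate 2 (0.0649) or KO replicate 2 (0.341). No test of the neighbourhood was made.

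The effect of the KO in this set was compared with that in the other sets in one edgeR fit of all 14 libraries as 6 groups. Of 17662 genes, 264 (1.49%) differed from the WT set at an adjusted p under 0.05, 198 of them with a log2 fold change that was lower here and 66 with one that was higher. Of 2495 DEGs tested in both fits, 36 differed from the WT set. The 198 included genes of the RPE. For Oca2 the log2 fold change of that fit was 1.07 here and 2.97 in the WT set, and for Bsg 0.65 and 2.33. From the Ctrl set 0 genes differed by edgeR (1545 at an unadjusted p under 0.05). The Ctrl set holds 4 libraries, and large differences can miss the adjusted threshold, so this 0 does not mean that the sets agree. The sets share no library.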

How the data were processed

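The authors aligned paired-end reads of stranded poly(A) libraries to GRCm38 with STAR 2.5.2 and deposited raw counts of reads per Ensembl gene, without normalization. The submitters' processing notes also name bcl2fastq 2.19, Cufflinks 2.1.1 and HTSeq 0.11.2, and the strand setting of the counting is not given in the sources used here. Of 42687 genes, 42329 were matched to GENCODE M21. Mitochondrially encoded genes, and some others, are not reported here and stand in no gene list.

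KO and CreCtrl libraries were fitted with edgeR 4.0.16 (TMM, filterByExpr, quasi-likelihood F test, Benjamini-Hochberg adjustment), and standard errors are the log2 fold change over the root of F. DESeq2 1.42.0, limma 3.58.1 (voom), other scalings, filters, depths and sample choices were alternatives. Each tool was tested on simulated data with known changes, as many up as down. That simulation does not cover the uneven split of directions found here. P-values measure the spread between these mice.

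Genes named were every CLIC gene, the 10 largest rises and falls among protein-coding DEGs with at least 10 CPM in both libraries of the higher group, the 10 most abundant DEGs in each direction and, per list, up to 2 called members each way with at least 5 CPM, and the most abundant. The members and lists were chosen with earlier results of these data known. Promoter windows are from RefSeq (GRCm38.p6). Versions were R 4.3.3 and Python 3.11.15.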

Additional observations from a re-analysis of the deposited data

Results flagged for a closer look

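In the fit of all 14 libraries, the KO effect of 264 genes differed between the CreCtrl set and the WT set by edgeR's test of the difference itself (adjusted p-value under 0.05), 17 of them named in the report. The difference in log2 fold change, CreCtrl set minus WT set, was -1.90 for Oca2, -1.85 for Ttr, -1.76 for Cst3, -1.75 for Gpr143, -1.71 for Dct, -1.70 for Itgb8, -1.67 for Bsg, -1.63 for Eci1, -1.50 for Krt18, -1.50 for Ezr, -1.49 for Lhx2, -1.45 for Spon1, -1.44 for Hsp90aa1, -1.42 for Rdh10, -1.37 for Aldoa and -1.12 for Otx2. For Vim it was 1.34. Control genotype and set cannot be told apart in these differences.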

How the results depend on the processing

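The 2498 DEGs (552 higher, 1946 lower) became 4287 (1437 higher) with all genes with at least 1 count, 703 (197 higher, 506 lower) in the fit of all 14 libraries and 3762 (1060 higher) with the replicate block. Higher DEGs were 176 with library size alone and 1193 with DESeq2. Without 1 library they ranged from 1147 to 4819 in all, 52 to 2123 higher and 1063 to 2696 lower. The replicate numbers share only a number (correlation of same-numbered deviations 0.13). Genes differing from the WT set were 487 when each library had to hold at least 10 counts. Clic4 kept its call in every alternative run, with the log2 fold change between -2.88 and -1.66.

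Of 142 other named genes, 117 were called, and 40 of these kept the call in every alternative that tested them. In 8 of 1834 combinations of gene and alternative the sign was reversed, 0 of them in called genes. All 552 higher and 1946 lower DEGs had both KO libraries on the same side of both CreCtrl libraries. Leaving out 1 library could therefore hardly reverse a called gene, and that 0 is no measure of robustness. With library size alone the reversed genes were B2m (-0.0657), Col18a1 (-0.0904), Bmp4 (-0.0428), Ttr (-0.0548), Krt18 (-0.0106) and Gnat2 (-0.00425). With 1 library left out, Gnat2 ranged from -0.0178 (without CreCtrl replicate 2) to 0.443, and Mylpf from -0.308 (without KO replicate 1) to 0.871. The cause of these changes was not tested. Depth limits low genes most. A count of 3 is 0.213 CPM in the shallowest library and 0.0926 CPM in the deepest.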
